A study of Mus musculus with 28 samples.

Results

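The G1 cyclins, their cyclin-dependent kinases (Cdks) and 2 Cdk inhibitors were examined in mouse embryonic stem cells (ESCs) with and without normal Tet2. The members were chosen by name from their known roles, after earlier results of these data had been seen. The cyclins were the D-type Ccnd1, Ccnd2 and Ccnd3 and the E-type Ccne1 and Ccne2. The others were the kinases Cdk2, Cdk4 and Cdk6 and the inhibitors Cdkn1b and Cdkn2a. All 10 were among the 17342 genes of the deposited table, and all 10 passed the filter on low values that left 17338 genes for testing. RNA-seq had been made from male V6.5 ESCs of mixed 129/C57BL/6 background, cultured in serum with LIF, a factor that maintains self-renewal. Wild-type cells (Tet2-WT) were sampled as 3 independent ESC cultures, cells with mutant Tet2 (Tet2-Mut) as 2 clones, and knockout cells (Tet2-KO) also as 2 clones. The question behind the series is which roles of Tet2, an enzyme that oxidizes 5-methylcytosine in DNA, do not need its catalysis, but the labels do not describe the mutation of Tet2-Mut. All cells had been kept on feeder cells, pre-plated to take the feeders away and held on gelatin overnight before harvest. With 2 clones per altered genotype, a difference due to genotype and a difference between clones cannot be told apart, and p-values measure only the spread between these libraries.

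In the mammalian cell cycle, D-type cyclins activate Cdk4 and Cdk6 in response to growth signals, and E-type cyclins activate Cdk2 at the entry into S phase. Both kinase classes phosphorylate the retinoblastoma proteins, which frees E2F factors to switch on genes of DNA replication. Inhibitors of the Cip/Kip family, such as p27 from Cdkn1b, bind cyclin-Cdk complexes, whereas p16Ink4a from Cdkn2a binds Cdk4 and Cdk6 alone. Mouse ESCs are known for a short G1 phase, strong cyclin E activity and weak dependence on D-type cyclins.

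The libraries held 41909397 to 58476612 recovered reads, and the values are normalized counts, that is reads divided by a size factor for each library. They are not divided by gene length, so levels are not compared between genes. Of the members, Ccne1, Cdkn1b and Cdkn2a overlap no other annotated gene. For the other 7, reads of an overlapping gene may not be told apart, since the submitters' processing notes name no strand setting for the counting. Tet2 itself measured 10343, 10245 and 12074 in Tet2-WT, 9992 and 13181 in Tet2-Mut and 4624 and 5206 in Tet2-KO, so transcript remained in the knockout clones at a reduced level. Against Tet2-WT this was a log2 fold change of -1.15 (limma adjusted p = 0.00522). All 10 ESC markers were present in every library, with summed levels of 315295 to 324645 except in Tet2-KO replicate 1, which had 266661. Tdgf1 was called lower in Tet2-KO than in Tet2-WT (log2 fold change -0.37, limma adjusted p = 0.0231) and Nanog lower in Tet2-Mut (-0.37, limma adjusted p = 0.0457). Each was the only call among the 10 markers, beside 5.91% and 3.43% of all genes tested. Both calls ended without any 1 Tet2-WT culture. In Tet2-KO 9 of the 10 ESC markers had a negative log2 fold change against Tet2-WT, with a median of -0.13. The clones differed, with a median relative to the Tet2-WT mean of -0.29 in Tet2-KO replicate 1 and -0.01 in replicate 2. Of 25 fibroblast markers, which would mark remaining feeder cells, 23 were in the table, and Dcn and Lum were not. None of the 23 was at 0 in any library. Their summed levels were 57423 to 62370 in Tet2-WT, 66793 and 52026 in Tet2-Mut, and 85632 and 69468 in Tet2-KO. Most of each sum was Fn1, which measured 43824 to 48307 in Tet2-WT, 52509 and 38669 in Tet2-Mut, and 57216 and 49846 in Tet2-KO. In bulk RNA, a change in the number of cells of a type and a change in RNA per cell cannot be told apart.

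Across the 10 members, Ccnd1 was higher and Cdkn1b was lower in Tet2-KO than in Tet2-WT, and Cdkn2a was higher in Tet2-Mut than in Tet2-WT. Those were the only calls among the 30 member comparisons made with limma at an adjusted p below 0.05. In Tet2-KO against Tet2-WT, 2 of 10 members were called, beside 5.91% of all genes tested. In Tet2-Mut against Tet2-WT it was 1 of 10, beside 3.43%. In Tet2-KO against Tet2-Mut it was 0 of 10, beside 6.19%, with 1 member at an unadjusted p below 0.05, 0 called by edgeR and 1 by DESeq2. Counts this small are given as a description. The median absolute log2 fold change was 0.17, 0.20 and 0.16 over the members in these comparisons, and 0.20, 0.20 and 0.21 over all genes tested. Both comparisons with Tet2-WT share the same 3 control libraries.

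**Figure D1:**
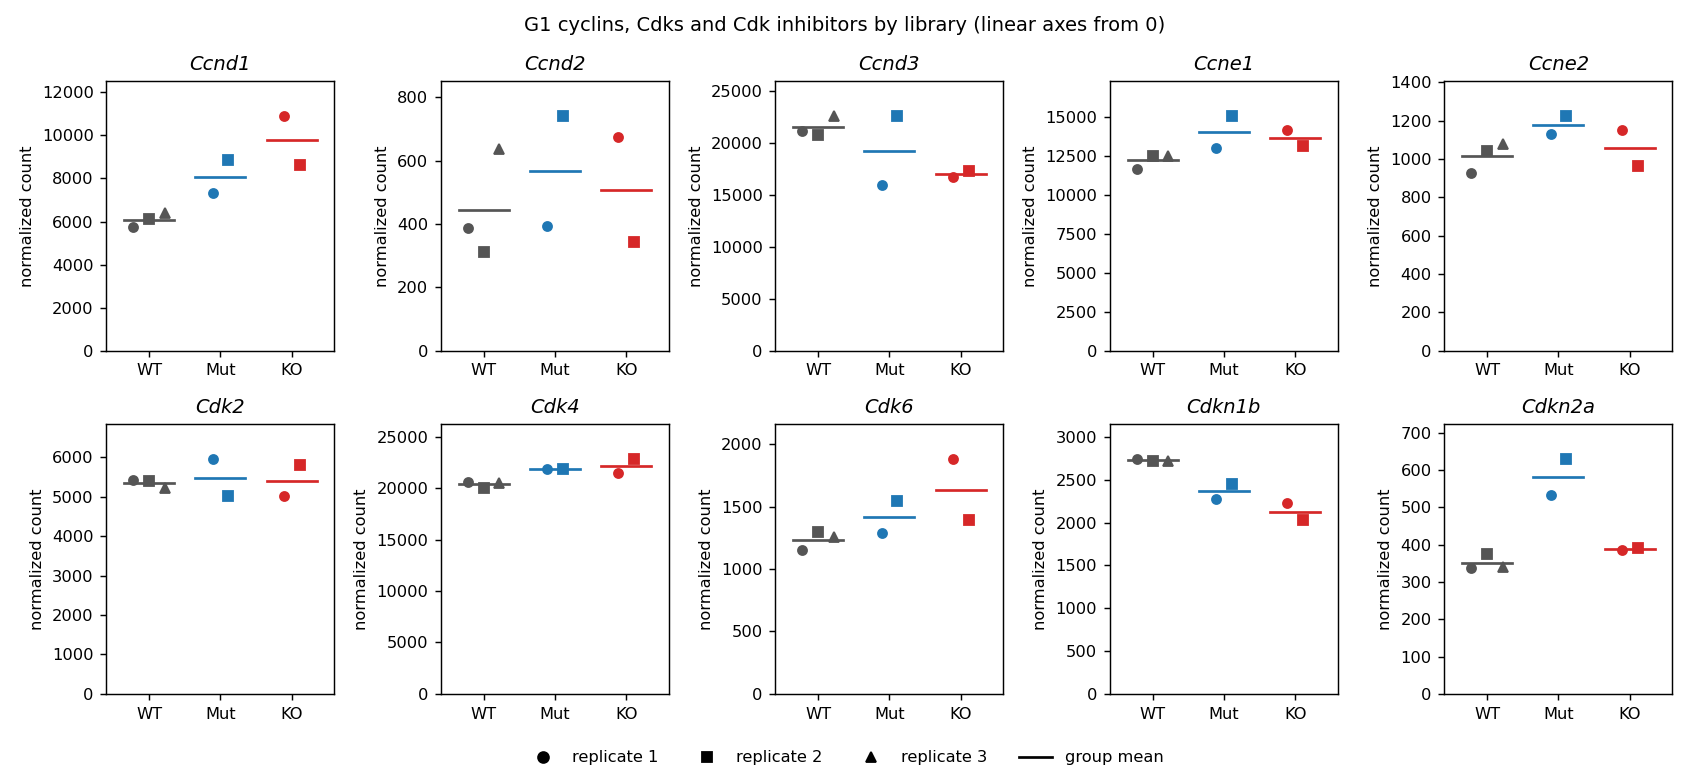
Normalized counts of the 10 G1 regulators in the 7 libraries, with 1 panel per gene, 1 point per library and a bar at each group mean. Each vertical axis starts at 0 and has its own range, so levels can be read within a gene only. The 3 Tet2-WT points of Cdkn1b lie at nearly 1 height above the others, and those of Cdkn2a lie below both Tet2-Mut points.

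Among the D-type cyclins, Ccnd1 rose in Tet2-KO, and Ccnd2 and Ccnd3 did not pass the test. Ccnd1, which encodes cyclin D1 and lies at chr7:144929931-144939831 (GRCm38.p6), measured 5726, 6102 and 6411 in Tet2-WT, 7329 and 8853 in Tet2-Mut, and 10892 and 8643 in Tet2-KO. Every altered clone was above every Tet2-WT culture, and the Tet2-Mut and Tet2-KO ranges overlapped. The group means were 6080 ± 343 (SD, n = 3), 8091 ± 1078 (SD, n = 2) and 9768 ± 1590 (SD, n = 2). Tet2-KO was 1.60-fold above Tet2-WT, a log2 fold change of 0.68 with a standard error of 0.11, a 95% interval of 0.42 to 0.93 and a limma adjusted p of 0.0156. The rise in Tet2-Mut was 1.33-fold, or 0.41 on the log2 scale (interval 0.15 to 0.67), and missed the threshold in limma (adjusted p = 0.0884) while DESeq2 called it (adjusted p = 0.0185). Limma called it too when only those 2 groups were fitted (adjusted p = 0.0468), and without Tet2-Mut replicate 1 (0.0180) or either Tet2-KO clone (0.0476 and 0.0469). Between Tet2-KO and Tet2-Mut the difference of 0.27 (interval -0.01 to 0.55) was not called (limma adjusted p = 0.272).

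The call of Ccnd1 in Tet2-KO depended on which library was left out. It ended without any 1 of the Tet2-WT cultures, with limma adjusted p values of 0.0833, 0.0753 and 0.0636 for replicates 1, 2 and 3, and also when Tet2-KO replicate 1 was dropped, with 0.104. Its log2 fold change ranged from 0.51 without Tet2-KO replicate 1 to 0.84 without Tet2-KO replicate 2. It stayed called without Tet2-KO replicate 2 (limma adjusted p = 0.00723) and without either Tet2-Mut clone (0.00307 and 0.00328). Tet2-KO replicate 1 had the highest Ccnd1 level and also the highest summed level of fibroblast markers. In Tet2-KO against Tet2-WT, 9 of the 23 fibroblast markers were called higher and 0 lower, beside 5.91% of all genes tested. Their median log2 fold change was 1.3. The median over the markers relative to the Tet2-WT mean was 1.53 for the first Tet2-KO clone (replicate 1) and 0.89 for the other (replicate 2). The count of 9 fell to 1 without Tet2-KO replicate 1, and to 1, 2 and 0 without Tet2-WT replicates 1, 2 and 3. Their part in the change of Ccnd1 was not tested. In Tet2-Mut against Tet2-WT, limma, edgeR and DESeq2 called 0 fibroblast markers, where limma called 3.43% of all genes tested. Of the markers, 4 had an unadjusted limma p below 0.05, and the median was 0.42. The neighbouring gene that overlaps Ccnd1 in the annotation had a log2 fold change of 0.01 against Tet2-WT in both genotypes. Genes that overlap other members were less flat, though not called. Against Tet2-WT, Tspan31, which overlaps Cdk4, had 0.15 in Tet2-KO and 0.09 in Tet2-Mut. In the same order, Ints8 (overlapping Ccne2) had 0.03 and 0.14, Bysl (Ccnd3) 0.16 and 0.15, and Pmel (Cdk2) 0.15 and 0.49. Whether their reads entered the counts of the members was not tested.

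Ccnd3, which encodes cyclin D3 and lies at chr17:47505051-47599689, measured 21171, 20826 and 22576 in Tet2-WT, 15939 and 22592 in Tet2-Mut, and 16750 and 17293 in Tet2-KO. Both Tet2-KO clones were below all Tet2-WT cultures, whereas the Tet2-Mut clones lay on either side of them. The means were 21525 ± 927 (SD, n = 3), 19265 ± 4705 (SD, n = 2) and 17021 ± 384 (SD, n = 2). With a log2 fold change of -0.34 (interval -0.62 to -0.06), Ccnd3 in Tet2-KO did not pass the test (limma adjusted p = 0.143), and neither did the other 2 comparisons. It was called in Tet2-KO against Tet2-WT when only those 2 groups were fitted and without either Tet2-Mut clone. Ccnd3 was also called lower in Tet2-Mut than in Tet2-WT without Tet2-Mut replicate 2 (-0.43, limma adjusted p = 0.0314), and lower in Tet2-KO than in Tet2-Mut without Tet2-Mut replicate 1 (-0.41, limma adjusted p = 0.00792). Ccnd2, which encodes cyclin D2 and lies at chr6:127125162-127152188, was the least reproducible member. It measured 389, 313 and 636 in Tet2-WT, 395 and 741 in Tet2-Mut, and 674 and 342 in Tet2-KO. All 3 ranges overlapped, and the interval of the Tet2-KO log2 fold change ran from -0.69 to 1.04, so changes in either direction of that size could not be resolved.

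The balance of Ccnd1 and Ccnd3 reads differed between the groups. The ratio of Ccnd1 to Ccnd3 was 0.270, 0.293 and 0.284 in Tet2-WT, 0.460 and 0.392 in Tet2-Mut, and 0.650 and 0.50 in Tet2-KO. The 3 groups did not overlap and were ordered Tet2-WT, Tet2-Mut, Tet2-KO. A ratio within a library does not depend on its scaling, but it is a ratio of reads and not of molecules. This pair was chosen after its values were seen, so the ratio is a description with no test.

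**Figure D2:**
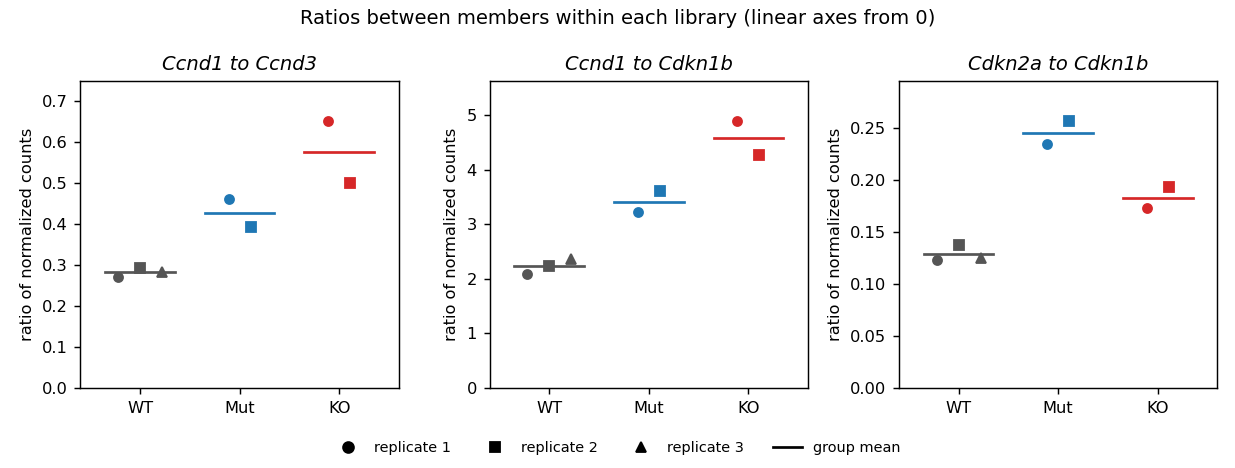
Ratios of normalized counts within each of the 7 libraries for 3 pairs of members, with 1 point per library and a bar at each group mean. Ccnd1 to Ccnd3 and Ccnd1 to Cdkn1b are lowest in Tet2-WT and highest in Tet2-KO, whereas Cdkn2a to Cdkn1b is highest in Tet2-Mut.

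Neither E-type cyclin passed the test in any comparison of all libraries. Ccne1, which encodes cyclin E1 and lies at chr7:38097984-38107490, measured 11693, 12496 and 12530 in Tet2-WT, 13019 and 15072 in Tet2-Mut, and 14181 and 13167 in Tet2-KO. All 4 altered clones were above all 3 Tet2-WT cultures, by a small margin. The log2 fold change was 0.20 (interval 0.02 to 0.37) in Tet2-Mut and 0.16 (interval -0.02 to 0.34) in Tet2-KO, and neither passed limma (adjusted p = 0.200 and 0.261). Without Tet2-Mut replicate 1, Ccne1 was called higher in Tet2-Mut (0.30, limma adjusted p = 0.0356). Ccne2, which encodes cyclin E2 and lies at chr4:11190433-11204779, measured 925, 1039 and 1076 in Tet2-WT, 1129 and 1223 in Tet2-Mut, and 1152 and 965 in Tet2-KO. Only the Tet2-Mut clones stood clear of Tet2-WT, with a log2 fold change of 0.22 (interval -0.05 to 0.48) that did not pass (limma adjusted p = 0.329).

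None of the kinase genes passed the limma test in any comparison of all libraries. Cdk2, the partner of cyclin E, at chr10:128697938-128705051, measured 5437, 5396 and 5230 in Tet2-WT, 5947 and 5015 in Tet2-Mut, and 5013 and 5796 in Tet2-KO. Clones of each altered genotype fell on both sides of Tet2-WT. The interval of the log2 fold change was -0.20 to 0.22 in Tet2-KO and -0.18 to 0.24 in Tet2-Mut. These intervals use a spread shared over all groups, while the SD of Cdk2 was 110 in Tet2-WT, 659 in Tet2-Mut and 554 in Tet2-KO. They can therefore be too narrow for the clones. Cdk4, a partner of D-type cyclins at chr10:127063535-127067288, measured 20602, 19983 and 20528 in Tet2-WT, 21846 and 21846 in Tet2-Mut, and 21488 and 22793 in Tet2-KO. Both altered genotypes lay above Tet2-WT without overlap, by log2 fold changes of 0.10 in Tet2-Mut (interval -0.03 to 0.23) and 0.12 in Tet2-KO (interval -0.01 to 0.25), which were not called (limma adjusted p = 0.344 and 0.244). Cdk6, the other partner of D-type cyclins, at chr5:3341004-3531008, measured 1154, 1299 and 1255 in Tet2-WT, 1288 and 1544 in Tet2-Mut, and 1879 and 1392 in Tet2-KO. Its 2 Tet2-KO clones were above Tet2-WT but differed from each other, and the log2 fold change of 0.39 (interval 0.07 to 0.71) was not called (limma adjusted p = 0.139). Without Tet2-KO replicate 2, Cdk6 passed the test. As for Ccnd1, the higher of the Tet2-KO values came from the clone with more fibroblast marker reads, whose part in it was not tested.

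The inhibitors gave the other 2 calls. Because Tet2 acts on methylated CpG sites, the 250 bases upstream of their annotated starts are shown, from RefSeq on GRCm38.p6, each in the direction of transcription with every CpG in capitals. Cdkn1b has 1 such window, on the plus strand at chr6:134920151-134920400. Cdkn2a has 2 on the minus strand, at chr4:89294620-89294869 before the upstream start and chr4:89282193-89282442 before the downstream start. The upstream start is known as that of p19Arf and the downstream start as that of p16Ink4a.
Cdkn1b upstream window: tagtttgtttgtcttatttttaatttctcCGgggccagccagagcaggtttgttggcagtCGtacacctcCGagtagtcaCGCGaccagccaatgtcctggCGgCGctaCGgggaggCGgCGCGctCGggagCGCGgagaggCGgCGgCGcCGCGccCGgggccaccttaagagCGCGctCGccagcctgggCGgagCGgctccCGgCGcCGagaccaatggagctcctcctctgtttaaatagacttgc
Cdkn2a upstream start, p19Arf side: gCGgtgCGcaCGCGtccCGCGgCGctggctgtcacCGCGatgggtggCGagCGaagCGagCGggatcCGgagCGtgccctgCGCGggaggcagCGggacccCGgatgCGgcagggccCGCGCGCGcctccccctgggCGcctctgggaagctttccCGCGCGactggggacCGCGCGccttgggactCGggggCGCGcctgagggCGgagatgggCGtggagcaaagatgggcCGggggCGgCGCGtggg
Cdkn2a downstream start, p16Ink4a side: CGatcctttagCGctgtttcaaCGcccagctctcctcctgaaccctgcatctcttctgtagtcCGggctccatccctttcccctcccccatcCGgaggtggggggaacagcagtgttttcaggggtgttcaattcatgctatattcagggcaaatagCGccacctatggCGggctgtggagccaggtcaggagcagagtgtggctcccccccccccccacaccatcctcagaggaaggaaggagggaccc
The Cdkn1b window held 28 CpG, and 7.61% of the 32817 RefSeq windows of this length held at least as many. The 2 Cdkn2a windows, whose starts lie 12427 bases apart, differed widely, with 40 CpG on the p19Arf side (1.31% of windows) and 7 on the p16Ink4a side (46.3% of windows), where the median over all windows was 6. Members that were not called had windows too. Ccne1 held 34 CpG (3.53% of windows), more than Cdkn1b, and Cdk6 held 22, Cdk2 21 and Cdk4 13. The 2 windows of Ccnd3 held 11 and 19. The called Ccnd1 had no window in this set. Methylation of these sites was not analysed here.

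Cdkn1b encodes p27Kip1, which binds and restrains cyclin E-Cdk2, and lies at chr6:134920401-134925525 with no overlapping gene in the annotation. It measured 2736, 2724 and 2722 in Tet2-WT, 2276 and 2453 in Tet2-Mut, and 2229 and 2025 in Tet2-KO. Every Tet2-WT value was above every Tet2-Mut value, and every Tet2-Mut value above every Tet2-KO value. Cdkn1b was the only member with its libraries in that order, which 263 of 17338 genes (1.52%) showed, and no member had the opposite order, which 385 genes (2.22%) showed. The means were 2727 ± 7.98 (SD, n = 3), 2364 ± 125 (SD, n = 2) and 2127 ± 144 (SD, n = 2). The Tet2-WT spread was below the 51.7 that counting alone would give, and the limma test uses a spread shared over all groups in place of it. In Tet2-KO the level was 0.779 times that of Tet2-WT, a log2 fold change of -0.36 (standard error 0.08, interval -0.54 to -0.18, limma adjusted p = 0.0334). In Tet2-Mut it was -0.21 (interval -0.38 to -0.03) and not called (limma adjusted p = 0.183), and the difference between the altered genotypes, -0.15 (interval -0.35 to 0.04), was not called either (limma adjusted p = 0.366).

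The Cdkn1b call did not survive the loss of any 1 Tet2-WT or Tet2-KO library. The limma adjusted p was 0.125, 0.128 and 0.113 without Tet2-WT replicates 1, 2 and 3, and 0.0881 and 0.0995 without Tet2-KO replicates 1 and 2. The log2 fold change was -0.43 without Tet2-KO replicate 1, the clone with the most fibroblast marker reads, and -0.29 without the other clone. The part of fibroblast marker reads in the change of Cdkn1b was not tested.

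Cdkn2a encodes both p16Ink4a, an inhibitor of Cdk4 and Cdk6, and p19Arf, which stabilizes p53, and spans chr4:89274473-89294619. Gene counts do not separate the transcripts. It measured 337, 375 and 340 in Tet2-WT, 533 and 629 in Tet2-Mut, and 385 and 391 in Tet2-KO. Both Tet2-Mut clones were well above all other libraries, and the Tet2-KO clones lay just above the highest Tet2-WT culture. The means were 351 ± 21.0 (SD, n = 3), 581 ± 67.6 (SD, n = 2) and 388 ± 4.11 (SD, n = 2). Tet2-Mut was 1.65-fold above Tet2-WT, a log2 fold change of 0.72 (standard error 0.14, interval 0.41 to 1.04, limma adjusted p = 0.0327). Tet2-KO differed from Tet2-WT by 0.15 (interval -0.16 to 0.46, limma adjusted p = 0.579). The direct comparison gave Tet2-KO a level 0.670 times that of Tet2-Mut, a log2 fold change of -0.58 (interval -0.92 to -0.24), which missed the threshold in limma (adjusted p = 0.0584) and passed in DESeq2 (adjusted p = 0.0110) and in limma without Tet2-Mut replicate 1 (adjusted p = 0.0249).

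Cdkn2a in Tet2-Mut lost its call without any 1 Tet2-WT culture, with limma adjusted p values of 0.169, 0.142 and 0.0921 for replicates 1, 2 and 3, and without Tet2-Mut replicate 2, with 0.106. The log2 fold change without that clone was 0.61. In Tet2-Mut replicate 2, where Cdkn2a was highest, the median fibroblast marker was 0.20 above the Tet2-WT mean on the log2 scale, and in Tet2-Mut replicate 1 it was 0.63 above. The single Tet2-WT cultures had 0.09, -0.03 and -0.07. The sum over the list, 52026 in Tet2-Mut replicate 2, is mostly Fn1 (38669) and went the other way. Their part in the change of Cdkn2a was not tested. Cdkn2b, which encodes the related inhibitor p15Ink4b and neighbours Cdkn2a, measured 125, 84.7 and 82.6 in Tet2-WT, 124 and 133 in Tet2-Mut, and 191 and 122 in Tet2-KO, and was not called against Tet2-WT in Tet2-Mut (limma adjusted p = 0.443) or Tet2-KO (limma adjusted p = 0.199).

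**Figure D3:**
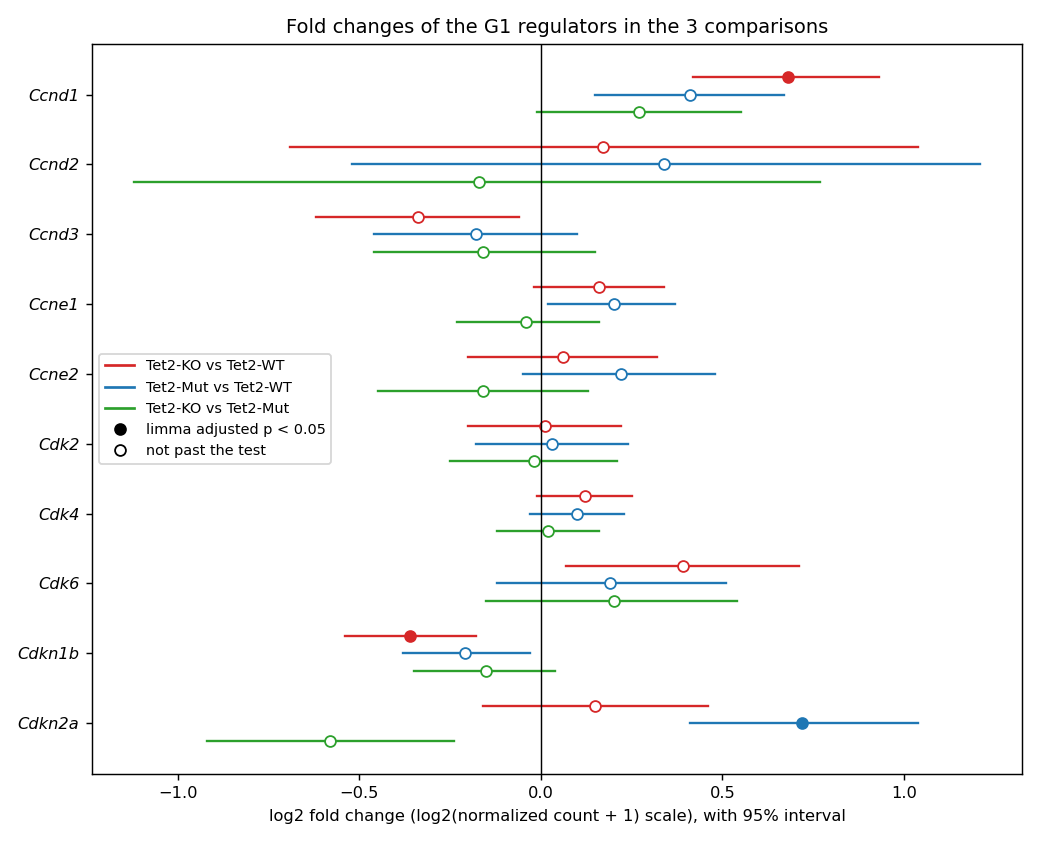
Log2 fold changes of the 10 members on the log2(normalized count + 1) scale in the 3 comparisons, with 95% intervals from limma and filled points for an adjusted p below 0.05. Filled points are Ccnd1 and Cdkn1b in Tet2-KO against Tet2-WT and Cdkn2a in Tet2-Mut against Tet2-WT.

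Considering all members by whether their libraries overlapped, 7 of 10 separated Tet2-KO from Tet2-WT, beside 44.7% of all genes tested, and 6 of 10 separated Tet2-Mut from Tet2-WT, beside 40.7%. For Tet2-KO against Tet2-Mut it was 2 of 10, Cdkn1b and Cdkn2a, beside 44.8%. Between activators and the inhibitor Cdkn1b, the ratio of Ccnd1 to Cdkn1b was 2.09, 2.24 and 2.36 in Tet2-WT, 3.22 and 3.61 in Tet2-Mut, and 4.89 and 4.27 in Tet2-KO. The 3 groups again did not overlap. The ratio of Cdkn2a to Cdkn1b was 0.123, 0.138 and 0.125 in Tet2-WT, 0.234 and 0.256 in Tet2-Mut, and 0.173 and 0.193 in Tet2-KO, so here Tet2-Mut was highest. Both ratios were also chosen after their values were seen.

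The wider G1/S machinery was taken as a list of 29 genes of pocket proteins, E2F factors, other inhibitors and upstream regulators. It had 3 genes higher and 2 lower in Tet2-KO than in Tet2-WT, or 17.2%, beside 5.91% of all genes tested. This list and the next were chosen with earlier results of these data known, so their shares are a description. The median log2 fold change was -0.05 where the median over all genes was 0. Mycn, a Myc-family transcription factor, measured 12839, 13375 and 14855 in Tet2-WT, 18432 and 17450 in Tet2-Mut, and 22293 and 21432 in Tet2-KO. Its groups did not overlap, and it was called in Tet2-KO (log2 fold change 0.68, limma adjusted p = 0.00522) and Tet2-Mut (0.39, limma adjusted p = 0.0315). Cks1b, which helps target p27Kip1 for degradation, was higher in Tet2-KO by 0.35 (limma adjusted p = 0.0176), and E2f6, a repressive E2F, by 0.56 (limma adjusted p = 0.0220). Rbl1, the pocket protein p107, fell by 0.50 (limma adjusted p = 0.0281). The fifth call was Cdkn2c, named after its values were seen, which encodes the inhibitor p18Ink4c and measured 104, 88.5 and 79.1 in Tet2-WT, 64.9 and 66.6 in Tet2-Mut, and 39.2 and 41.4 in Tet2-KO (log2 fold change -1.14 in Tet2-KO, limma adjusted p = 0.0435). Of these 5, Mycn alone stayed called when any 1 Tet2-WT culture or Tet2-KO replicate 1 was left out, and Cdkn2c was lost also when Tet2-KO replicate 2 was left out.

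In Tet2-Mut, 3 genes of that list were higher and 1 was lower than in Tet2-WT, or 13.8%, beside 3.43% of all genes tested. The median was 0.08 where all genes had 0.01. E2f4, the main repressive E2F of quiescent cells, measured 11789, 11711 and 14029 in Tet2-WT, 17526 and 18335 in Tet2-Mut, and 11469 and 11099 in Tet2-KO. Its dimerization partner gene Tfdp1 had the same shape, with 14956, 16151 and 17110 in Tet2-WT, 21108 and 21949 in Tet2-Mut, and 13635 and 14607 in Tet2-KO. Both genes were thus highest in Tet2-Mut and lowest in Tet2-KO. E2f4 was higher in Tet2-Mut than in Tet2-WT by 0.52 (limma adjusted p = 0.0227) and Tfdp1 by 0.42 (limma adjusted p = 0.0242), and E2f1, an activating E2F, fell by 0.58 (limma adjusted p = 0.0492). None of the 4 calls of this comparison, Mycn included, held without Tet2-WT replicate 1, Tet2-WT replicate 2 or Tet2-Mut replicate 2, and E2f1 was lost without Tet2-WT replicate 3 too. Directly compared, Tet2-KO was below Tet2-Mut for E2f4 (log2 fold change -0.67, limma adjusted p = 0.00540), Tfdp1 (-0.61, limma adjusted p = 0.00448) and E2f2, another activating E2F (-0.73, limma adjusted p = 0.0420). E2f4 and Tfdp1 kept that call whichever single library was left out, whereas E2f2 lost it without each library but Tet2-Mut replicate 1. With only the Tet2-KO and Tet2-Mut libraries fitted, or without the mean trend, none of E2f4, Tfdp1 and E2f2 was called. In the main fit, the list had 0 genes higher, 3 lower (10.3%, beside 6.19% of all genes tested) and a median of -0.03 here.

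Downstream, the 25 E2F target genes of S phase had 0 genes higher and 3 lower in Tet2-KO than in Tet2-WT, with a median of -0.10. The 3 were Tk1, thymidine kinase (log2 fold change -0.50, limma adjusted p = 0.0276), Gins2, a subunit of the replicative helicase (-0.35, limma adjusted p = 0.0437), and Pola1, of DNA polymerase alpha (-0.27, limma adjusted p = 0.0468). Their calls ended when any 1 Tet2-WT culture or Tet2-KO replicate 1 was left out, and without Tet2-KO replicate 2 only Tk1 was called. In Tet2-Mut against Tet2-WT limma called 0, beside 3.43% of all genes tested, with 7 at an unadjusted limma p below 0.05. EdgeR called 0 there and DESeq2 called 1, Ung. In Tet2-KO against Tet2-Mut 4 were lower, among them Mcm5, a helicase subunit (-0.50, limma adjusted p = 0.00767), which kept its call without any single library. The others were Gins2 (-0.47, limma adjusted p = 0.0187), Cdt1, a licensing factor (-0.29, limma adjusted p = 0.0443), and Tk1 (-0.46, limma adjusted p = 0.0481). Cdt1 lost its call without any 1 library, Tk1 without each but Tet2-Mut replicate 1 and Tet2-KO replicate 2, and Gins2 without Tet2-WT replicate 2 or either Tet2-KO clone. With only the Tet2-KO and Tet2-Mut libraries fitted, or without the mean trend, none of these 4 was called in that comparison. In the main fit, the calls were 12% of the list in Tet2-KO against Tet2-WT and 16% in Tet2-KO against Tet2-Mut, beside 5.91% and 6.19% of all genes tested. The sum over the list was 231312 and 245030 in Tet2-KO replicates 1 and 2, and 253542 to 258909 in the other libraries. Tet2-KO replicate 1, with the lowest sum, also had the most fibroblast marker reads. In Tet2-KO against Tet2-Mut, 5 of 23 fibroblast markers were called higher and 0 lower (21.7%, beside 6.19% of all genes tested), with a median of 0.75. Their part in the changes of this list, or of E2f4 and Tfdp1, was not tested.

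The 25 genes of G2 and mitosis had medians of -0.02, -0.02 and -0.03 in the 3 comparisons, in the order given above. The share called in Tet2-Mut against Tet2-WT was 4%, beside 3.43% of all genes tested. Cdc20, an activator of the anaphase-promoting complex, was the single limma call, higher in Tet2-Mut than in Tet2-WT by 0.30 (adjusted p = 0.0492), and it ended without any 1 Tet2-WT culture or Tet2-Mut replicate 2. In Tet2-KO against Tet2-WT limma called 0 of the 25, beside 5.91% of all genes tested, with 3 at an unadjusted limma p below 0.05. EdgeR and DESeq2 called 0 there too. In Tet2-KO against Tet2-Mut limma called 0, beside 6.19% of all genes tested, with 2 at an unadjusted limma p below 0.05. EdgeR called 0 there and DESeq2 called 1, Wee1. With 25 genes, counts of 0 are given as a description.

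**Figure D4:**
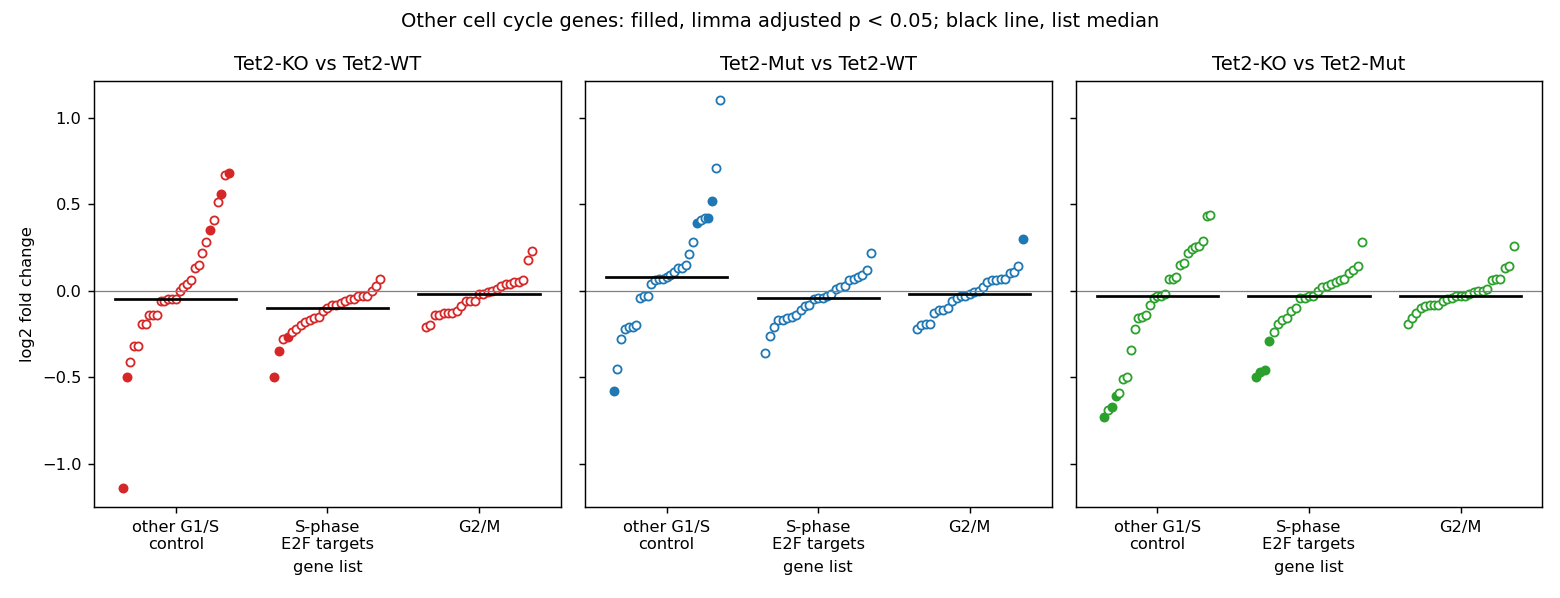
Log2 fold changes on the log2(normalized count + 1) scale for the 3 other cell-cycle lists in the 3 comparisons, with 1 point per gene in order of its value, filled where the limma adjusted p was below 0.05, and a bar at each median. The medians lie between -0.10 and 0.08, and the G2 and mitosis list has 1 filled point, Cdc20 in Tet2-Mut against Tet2-WT.

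Profiles over the 7 libraries were compared as the mean absolute difference on the log2 scale after centring on Tet2-WT. The search covered 12346 genes with a mean of at least 50 and no predicted-gene, RIKEN, clone or pseudogene name. From these, the genes most like each called member were listed. For Ccnd1 they were Dbn1 (0.052), Abhd5 (0.052) and Pawr (0.062), where the median gene differed by 0.35. For Cdkn1b they were Lrba (0.023), Agbl5 (0.042) and Fnbp1l (0.042), beside a median of 0.23, and for Cdkn2a they were Wdr47 (0.074), Polr3d (0.087) and Dscaml1 (0.087), beside 0.31. The profiles share their libraries, so the likeness carries no test.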

How the data were processed

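RNA-seq from 7 libraries was used, and the other 21 samples, of other assays, were not used here. The authors trimmed reads with Trim Galore 0.6.5, aligned them to mm10 with STAR 2.7.3a and used featureCounts and DESeq2, per the submitters' processing notes, which do not give the order or the strand setting. The deposited values, a signal in units of normalized counts, are whole read counts divided by a size factor for each library: 100% of values came out whole within 0.01. Recovered reads may include mates of a pair counted separately, so counting errors may be larger than given. They cover counting error only. A count of 3 reads corresponded to 2.5 to 3.54 normalized counts.

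Differences were tested with limma 3.58.1 (R 4.3.3) after the values were taken as log2(normalized count + 1). Genes needed a value of 10 or more in 2 or more libraries. Group means were fitted over the 7 libraries together (4 residual degrees of freedom, prior 5.03 with a mean trend), with Benjamini-Hochberg adjustment over all 17338 genes at 0.05. Fold changes are on this scale and understate changes of low genes. All replicate pairs differed by more than sampling noise. The chi-square per degree of freedom was 7.19 to 13.4 in Tet2-WT, 45.1 in Tet2-Mut and 34.2 in Tet2-KO, so the shared estimate can understate the spread between clones. Calls were set beside edgeR 4.0.16 and DESeq2 1.42.0 on the recovered reads. Only the limma steps had been tested on simulated data, in which all groups had the same spread. Other alternatives were pseudocounts of 0.5 and 10, no filter or a minimum of 50, upper quartile scaling, only the 2 groups compared, no mean trend, a replicate block and leaving out each library.

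The members and gene lists were chosen with earlier results of these data known. Beside the members and Tet2, each other cell-cycle list contributed the called genes of smallest p, up to 4 in a comparison. Cdkn2b, Cdkn2c, and genes named for single tools or left-out libraries were chosen after their values were seen. Places and promoter windows come from RefSeq on GRCm38.p6, and 7 of 10 members had a window. A Pearson correlation of same-numbered libraries around their group means was at most 0.09, so the numbers were not taken to pair the samples.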

Additional observations from a re-analysis of the deposited data

How the results depend on the processing

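Leaving out 1 library at a time gave 0 to 3 called members in Tet2-KO against Tet2-WT (2 in the fit of all libraries), 0 to 3 in Tet2-Mut against Tet2-WT (1) and 0 to 2 in Tet2-KO against Tet2-Mut (0). Over all genes these ranges were 85 to 2158 (1025), 6 to 2198 (594) and 530 to 2679 (1074). For the other G1/S genes they were 1 to 7 (5), 0 to 9 (4) and 2 to 8 (3), for the S-phase targets 0 to 5 (3), 0 to 2 (0) and 1 to 5 (4), and for the G2 and mitosis genes 0 to 1 (0), 0 to 3 (1) and 0 to 1 (0), in the same order of comparisons. With the replicate number as a block, counts in Tet2-KO against Tet2-WT were 0 members, 15 of all genes, 1 G1/S gene and 0 S-phase targets. In Tet2-Mut against Tet2-WT the block gave 0 members, 7 of all genes, 0 G1/S genes and 0 G2 and mitosis genes, and in Tet2-KO against Tet2-Mut 467 of all genes and 1 S-phase target. The block changed the sign of Cdk2 in Tet2-KO against Tet2-WT (-0.01, from 0.01). Same-numbered libraries did not deviate together, so the block is not a paired test. Without the mean trend in the prior, counts were 0 members and 19 of all genes in Tet2-KO against Tet2-WT, 0 and 0 in Tet2-Mut against Tet2-WT (3018 at an unadjusted p below 0.05 in limma) and 10 of all genes in Tet2-KO against Tet2-Mut, and 0 in every list that had calls. Fitting only the 2 groups compared gave 2153 of all genes, 5 S-phase targets and 1 G2 and mitosis gene in Tet2-KO against Tet2-WT. It gave 2 members, 901 of all genes and 1 S-phase target in Tet2-Mut against Tet2-WT. In Tet2-KO against Tet2-Mut it gave 0 of all genes in limma (2351 at an unadjusted p below 0.05), with 0 G1/S genes and 0 S-phase targets. DESeq2 called 1994, 1566 and 1809 of all genes in the 3 comparisons, 2 members and 1 S-phase target in Tet2-Mut against Tet2-WT, and 1 member, 5 G1/S genes and 1 G2 and mitosis gene in Tet2-KO against Tet2-Mut. EdgeR with RLE scaling called 0 G2 and mitosis genes in Tet2-Mut against Tet2-WT. The causes of these differences were not tested. Log2 fold changes that changed sign on leaving out 1 library ranged, for Ccnd2, from -0.32 to 0.66 in Tet2-KO and -0.11 to 0.80 in Tet2-Mut against Tet2-WT, and from -0.66 to 0.32 in Tet2-KO against Tet2-Mut. For Ccnd3 they ranged from -0.43 to 0.07 in Tet2-Mut against Tet2-WT and from -0.41 to 0.09 in Tet2-KO against Tet2-Mut. For Cdk2 they were -0.09 to 0.11, -0.09 to 0.15 and -0.14 to 0.10 in the 3 comparisons. In Tet2-KO against Tet2-Mut they were -0.14 to 0.07 for Ccne1, -0.02 to 0.06 for Cdk4 and -0.02 to 0.41 for Cdk6. Ccne2 in Tet2-KO against Tet2-WT ranged from -0.07 to 0.19 and Tet2 in Tet2-Mut against Tet2-WT from -0.12 to 0.28. Of 540 values of single members under an alternative, 488 kept direction and side of the threshold, 19 lost a call, 14 gained one and 19 changed sign. All 19 lost calls fell in the 3 of 30 member comparisons that were called in the main fit. Most of the 488 belonged to comparisons not called there, which had no call to lose. Upper quartile scaling moved no library by more than 0.025 on the log2 scale. Of the members, edgeR called those that limma called. Each group of 2 clones limits the precision, since their SD exceeded the counting error for 9 of 10 members in Tet2-Mut (all but Cdk4) and in Tet2-KO (all but Cdkn2a).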
